A study of Caenorhabditis elegans with 12 samples.

Results

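The microRNAs of mir-71 mutants were compared with those of wild-type Caenorhabditis elegans at day 5 of adulthood, an age at which the worms are past their reproductive peak. All 3 mutant and 3 wild-type libraries of that age were used, 6 of the 12 in the series, with every mature microRNA of the deposited table. The comparison therefore covered 211 of 213 microRNAs, and the 2 products of mir-71 itself were set apart as the check of the mutation. The remaining libraries, from both strains at day 0 of adulthood, shared in the estimate of the spread and gave the comparison of the ages. The wild type was N2. The mutant was strain MT12993, which carries mir-71(n4115), a deletion allele, in every cell. Both strains grew at 20 °C and went, soon after the last moult, onto plates with 5-fluorodeoxyuridine at 0.1 mg/mL, which blocks DNA synthesis so that no progeny develop. Whole animals were collected, and the submitters describe the 3 libraries of a group as biological triplicate. The mutation was carried by 1 strain, so that its effect and other differences of that strain from N2 cannot be told apart. In RNA of whole animals, fewer cells of a type and less RNA per cell cannot be told apart either.

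A microRNA gene is transcribed into a hairpin precursor, from which a short duplex is cut. One arm of the duplex, 5p or 3p, is usually kept in an Argonaute protein as the guide, where the bases near its start pair with messenger RNAs that are then repressed. The other arm, the passenger, is mostly degraded. In adult worms miR-71 is known to promote long life and stress resistance, and it is studied for its links to insulin signalling and to the signals by which the germline affects lifespan.

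Loss of miR-71 was seen in each mutant library. Its guide, miR-71-5p, stood at 142695, 90221 and 110683 normalised reads in the 3 N2 libraries and at 104, 189 and 166 in the mutants. The passenger miR-71-3p stood at 202, 276 and 419 in N2 and was listed at 0 in each mutant library. The log2 difference of miR-71-5p was −9.56 ± 0.43 on the deposited scale and −10.50 ± 0.52 relative to library medians (SE, limma). In WBcel235 the gene is on chromosome I at 9379927 to 9380020, minus strand, inside an intron of ppfr-1. Together the 2 arms made up 6.72, 6.77 and 5.47% of the N2 totals, so they were left out of every library total and median used below.

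After the authors' scaling the aged mutants still had a higher mean overall level than N2, although the groups overlapped, and 1 mutant library stood apart. The median over the 211 microRNAs was 99.2, 71.4 and 112 normalised reads in N2 and 295, 108 and 179 in the mutants, in the order of the replicate numbers. The totals were 1983130, 1245900 and 1919260 in N2 and 5021320, 1870210 and 2493780 in the mutants. Replicate 1 of the mutants was the highest by both measures, while replicate 2 of the mutants overlapped N2 by both. The mean of the mutant medians was 193.8 ± 94.5 against 94.4 ± 20.9 for N2 (SD over 3 libraries each), which is a ratio of 2.05, and a two-sided exact permutation test gave p = 0.2. The ratio of mean totals was 1.82 (exact permutation p = 0.3), and 3 against 3 libraries cannot give a p below 0.1. Without replicate 1 of the mutants the ratios were 1.52 and 1.27. The 10 most abundant microRNAs took 59.5% ± 3.48 of the total in N2 and 63.7% ± 2.85 in the mutants (SD, n = 3 in each group, exact permutation p = 0.2). Such a gap in level enters the difference of every microRNA on the deposited scale, and normalised counts cannot show whether the worms held more microRNA. Counts of calls over all 211 are therefore given also with values as multiples of the library median and as shares of the library total. For single microRNAs and lists, results relative to medians are mostly given, and shares of the total for some.

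**Figure D1:**
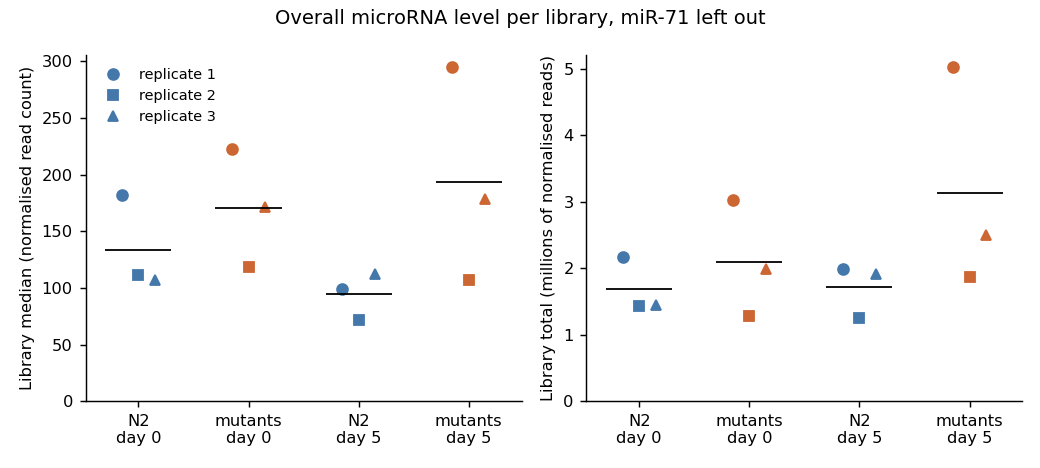
Library median (left, normalised read count) and library total (right, normalised reads) over the 211 microRNAs other than miR-71, for the 3 libraries of each strain and age, with a symbol for each replicate number and a line at the group mean. Replicate 1 of the mutants at day 5, at a median of 294.8 and a total of 5021320, lies above each other library.

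On the deposited scale 48 of the 211 microRNAs, or 22.7%, were called higher in aged mutants and 0, or 0%, lower. A call is a limma adjusted p under 0.05 on log2(value + 1). 95 microRNAs had an unadjusted p under 0.05, all of them higher. The median log2 difference over all 211 was 0.98 (quartiles 0.43 and 1.47), so that most of the table lay on the side of the mutants. Relative to library medians the median difference was 0.05 (quartiles −0.52 and 0.54). On that scale limma called 15 microRNAs higher, 7.11%, and 13 lower, 6.16%. As shares of the library total, 19, or 9%, were higher and 5, or 2.37%, lower. The picture thus turned from a table-wide rise on the deposited scale to a smaller set on both sides of the median. Values of all 3 mutant libraries lay above all 3 of N2 for 87 microRNAs, 41.2%, on the deposited scale, and below for 1, miR-37-5p, named after its values were seen. Relative to medians, 36 microRNAs, 17.1%, lay wholly above and 36, 17.1%, wholly below.

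Same-numbered libraries of the strains deviated together, and with the replicate number as a block limma called 95 higher and 1 lower, miR-44-5p, on the deposited scale. As shares of the total the block gave 25 higher and 11 lower. These are fits of all 12 libraries, as are the blocked values below where no other fit is named. A blocked fit of the 6 day 5 libraries alone called 62 higher and 0 lower on the deposited scale, and 26 higher and 34 lower relative to medians. Single libraries decided the size of these counts. Leaving out replicate 1 of the aged mutants took the number called higher on the deposited scale to 1. It was 25 without their replicate 3. Dropping an aged N2 library gave 6 for replicate 1 and 3 for replicate 2, and dropping replicate 2 of the day 0 mutants gave 75. Relative to medians, 2 higher and 2 lower were left when replicate 1 of the aged mutants was dropped, and 6 and 3 when their replicate 3 was. Dropping their replicate 2 left 4 higher. For aged N2 the calls were 3 higher and 5 lower without replicate 1, and 8 and 6 without replicate 2.

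**Figure D2:**
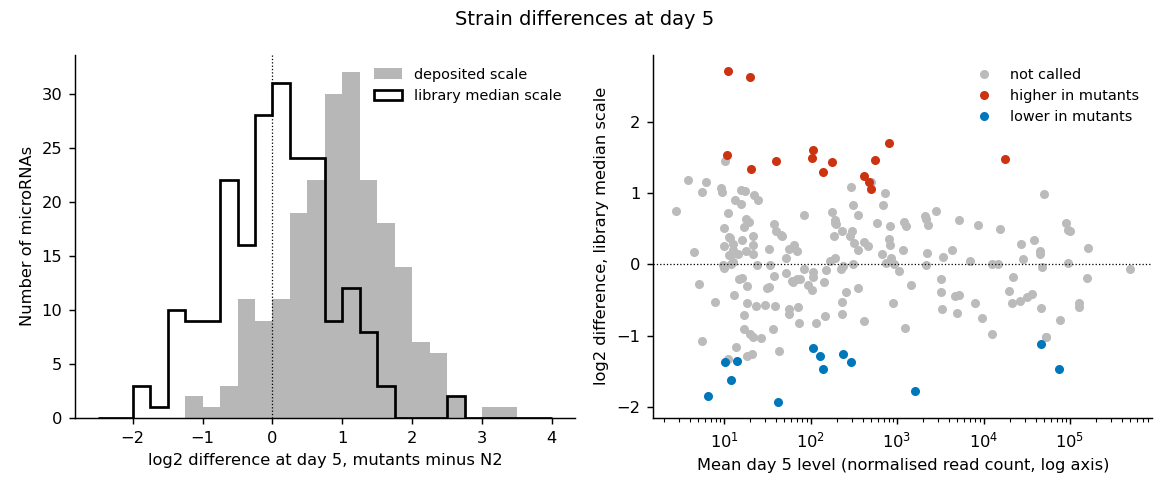
Left, number of microRNAs by log2 difference at day 5 (mutants minus N2) on the deposited scale (grey) and relative to library medians (line), with medians of 0.98 and 0.05. Right, the difference relative to library medians against the mean day 5 level (normalised read count, log axis), with the 15 microRNAs called higher and the 13 called lower in colour.

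The same 15 microRNAs, 7.11% of the 211, were called higher on the deposited scale, relative to library medians and as shares of the total, and 9 of them also with both other scalings tried. They were lsy-6, miR-2-5p, miR-62, miR-85-3p, miR-233-3p, miR-239a-5p, miR-239b-5p, miR-244-5p, miR-259-5p, miR-784-5p, miR-785, miR-792-3p, miR-793, miR-795-3p and miR-1821. Their log2 differences ran from 1.997 to 3.35 on the deposited scale and from 1.06 to 2.71 relative to library medians. Together they took 0.212%, 0.508% and 0.448% of the total in the N2 libraries and 1.14%, 1.16% and 1.10% in the mutants. The 15 were picked by their values in these same libraries, so the gap in their sum follows from that choice. Apart from miR-85-3p they were microRNAs of low or middle abundance. The 33 that were called on the deposited scale but not relative to medians had median-scale differences of 0.15 to 1.45.

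**Figure D3:**
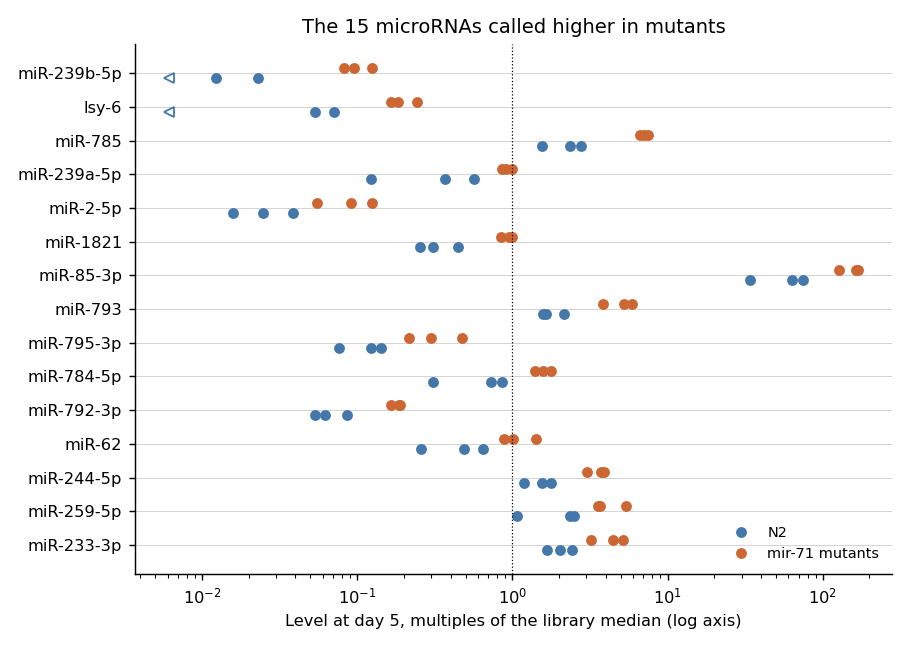
Level at day 5 of the 15 microRNAs called higher, as multiples of the library median (log axis), with 1 point for each of the 3 N2 and 3 mutant libraries and an open triangle at the left edge for a library at 0. For each of the 15 the mutant points lie above the N2 points. The dotted line marks the library median.

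miR-85-3p was the abundant member of the set. In the worm it is studied in recovery from heat shock, where it represses a heat-inducible Hsp70 gene. It stood at 3362, 5372 and 7143 normalised reads in N2 and 48131, 18161 and 22888 in the mutants. Its share of the total was 0.170, 0.431 and 0.372% in N2 and 0.959, 0.971 and 0.918% in the mutants, so the mutant libraries lay close together and above all of N2. The log2 difference was 2.43 ± 0.50 on the deposited scale (SE, limma adjusted p = 0.00923) and 1.48 ± 0.36 relative to library medians (limma adjusted p = 0.0102), where the call was lost when replicate 1 of either aged strain was dropped. mir-85 lies on chromosome II at 8393553 to 8393658, in an intron of F49E12.8, which is on the opposite strand.

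lsy-6, known for making the left and right taste neurons of a pair unlike each other, was scarce in aged N2 and several times higher in the mutants. The deposited values were 0, 5.06 and 6.05 in N2 and 54.3, 26.0 and 29.5 in the mutants. As multiples of the library median these were 0, 0.0709 and 0.0538 against 0.184, 0.242 and 0.165, and the groups did not overlap. The difference relative to medians was 2.63 ± 0.63 (SE, limma adjusted p = 0.0102), and without replicate 1 of aged N2 it was 1.54 (adjusted p = 0.0431). It was not called without replicate 2 of the mutants at day 5 (adjusted p = 0.0502). With a library at 0 and others within a few normalised reads of 0, its size depends on the added 1.

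mir-792 and mir-1821 are neighbours, and both were among the 15. They lie on chromosome V at 3042092 to 3042181 and 3042530 to 3042633, on the minus strand, 349 bases apart and outside protein-coding genes. miR-1821 stood at 0.444, 0.307 and 0.254 library medians in N2 and 0.946, 1.00 and 0.845 in the mutants. It had the most stable call of the set, since it was called on all 3 scales whichever of the 12 libraries was left out, at 1.49 ± 0.33 relative to medians (limma adjusted p = 0.00785). miR-792-3p was scarcer, at 0.0617, 0.0866 and 0.0538 medians in N2 and 0.188, 0.164 and 0.185 in the mutants. Its groups did not overlap either, and its difference was 1.34 ± 0.42 (limma adjusted p = 0.0348).

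miR-239a-5p and miR-239b-5p also come from neighbouring genes, on the plus and the minus strand of chromosome X at 11792445 to 11792542 and 11791302 to 11791399. Loss of these genes is known to lengthen life. miR-239a-5p stood at 12.3, 26.4 and 64.0 normalised reads in N2 and 269, 91.9 and 179 in the mutants. miR-239b-5p stood at 1.23, 0 and 2.59 in N2 and 37.0, 8.83 and 17.0 in the mutants. No mutant library reached down to the N2 values for either. Relative to medians the differences were 1.60 ± 0.51 (limma adjusted p = 0.0413) and 2.71 ± 0.82 (adjusted p = 0.0334). Without replicate 1 of aged N2 the former was 0.99 (adjusted p = 0.262), and its call was lost in 5 of the 12 fits that leave out a library, those without that library, replicate 2 of aged N2 or any 1 of the aged mutants. The latter is close to the floor of the table, and its call was lost with a pseudocount of 0.5. The opposite arm miR-239a-3p had −0.29 ± 0.32 relative to medians (adjusted p = 0.619). These genes are related in sequence, and how reads common to related microRNAs were assigned is not given in the sources used here.

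mir-2 lies in an intron of ppfr-1 as mir-71 does, on chromosome I at 9372768 to 9372865 and 7062 bases away on the same strand. Its 5p arm was among the 15, its 3p arm was not. miR-2-5p stood at 2.45, 1.13 and 4.32 normalised reads in N2 and 37.0, 9.87 and 9.84 in the mutants. The guide miR-2-3p stood at 159, 166 and 339.8 and 677, 357 and 399.9. Both sets of mutant values lay above N2 on the deposited scale, but those of miR-2-3p overlapped once divided by the library median. The differences relative to medians were 1.53 ± 0.51 for miR-2-5p (limma adjusted p = 0.0444) and 0.20 ± 0.35 for miR-2-3p (adjusted p = 0.774). On the deposited scale miR-2-3p had 1.14 ± 0.48 (adjusted p = 0.0835, and 0.0261 with the replicate block). The call of the scarce miR-2-5p relative to medians was kept in 3 of the 12 fits that leave out a library.

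miR-793 and miR-795-3p come from distant relatives of let-7, the microRNA that times the passage from larva to adult. miR-793 stood at 157, 154 and 184 normalised reads in N2 and 1538, 631 and 689 in the mutants, a difference of 1.46 ± 0.37 relative to medians (limma adjusted p = 0.0155). miR-795-3p, the passenger arm, stood at 12.3, 10.1 and 8.65 and 141, 32.2 and 38.5 (1.44 ± 0.39, adjusted p = 0.0205). The 3 N2 libraries were within a narrow band for both, and replicate 1 of the mutants was the highest. The guide miR-795-5p was called on the deposited scale (1.33 ± 0.39, adjusted p = 0.0248) and not relative to medians (0.39 ± 0.40, adjusted p = 0.570).

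miR-785 kept a wide gap after rescaling. It stood at 1.56, 2.77 and 2.37 library medians in N2 and 7.47, 6.65 and 7.04 in the mutants, a difference of 1.70 ± 0.43 (limma adjusted p = 0.0155). miR-62 is a mirtron, made from a spliced intron of ugt-50 and not by the enzyme that cuts other hairpins. It stood at 0.259, 0.488 and 0.646 medians in N2 and 1.41, 0.879 and 1.01 in the mutants (1.30 ± 0.37, adjusted p = 0.0272). The other 4 were miR-784-5p (1.44 ± 0.42), miR-244-5p (1.24 ± 0.34), miR-259-5p (1.16 ± 0.38) and miR-233-3p (1.06 ± 0.35), all relative to medians, with limma adjusted p from 0.0240 to 0.0444. Without replicate 1 of aged N2 miR-259-5p had 0.77 (adjusted p = 0.245). miR-233-3p, studied in the unfolded protein response during infection, had the smallest difference of the 15 and kept its call in 3 of 12 fits without a library. For lsy-6 the number was 11, for miR-85-3p 10, for miR-1821 12, and for the others between 3 and 9.

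At day 0 no microRNA other than miR-71 passed the test. limma called 0 of 211 on the deposited scale and 0 relative to medians, where 5 and 11 had an unadjusted p under 0.05. Of the 15 called higher at day 5, 13 had a positive and 2 a negative difference relative to medians at day 0, with a median of 0.64 against 1.46 at day 5. Over all 211 microRNAs 91 were positive and 120 negative at day 0. Of the 13 called lower at day 5, 13 were negative at day 0, with a median of −0.65 against −1.37. The libraries of the 2 ages are separate, but the 4 groups share 1 estimate of the spread. The difference between the strain differences of the ages was itself tested, and limma called 0 microRNAs on each scale. The smallest adjusted p was 0.398 on the deposited scale, 0.637 relative to medians and 0.570 on shares of the total, with 25, 15 and 16 at an unadjusted p under 0.05. With the replicate block limma again called 0 at day 0 and 0 for the difference between the ages on each of the 3 scales. The smallest adjusted p for the latter was then 0.212, 0.456 and 0.385, with 41, 18 and 27 at an unadjusted p under 0.05, and at day 0 19, 21 and 24 had one. No microRNA is therefore shown by these fits to differ between the strains at day 5 more than at day 0.

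Among the 15, some had lower N2 values at day 5 than at day 0, given here in deposited values and without a test of age. The N2 library medians stood at 182, 112 and 107 at day 0 and at 99.2, 71.4 and 112 at day 5. Such a difference in level enters deposited values. miR-85-3p stood at 18998, 11961 and 11177 normalised reads in N2 at day 0, above all its N2 values at day 5, whereas the mutants had 34366, 12006 and 26263 at day 0, within the span of their later values except in replicate 2. lsy-6 likewise stood at 14.9, 15.6 and 11.2 in N2 at day 0, above N2 at day 5, and at 49.7, 12.5 and 35.8 in the mutants. The differences between the ages were 1.73 ± 0.70 and 2.36 ± 0.999 on the deposited scale (limma adjusted p = 0.398 for both). Others had a difference at day 0 too, which did not pass. miR-239a-5p had a day 0 difference of 1.39 ± 0.51 and miR-792-3p of 1.14 ± 0.42 relative to medians (adjusted p = 0.484 for both). miR-2-5p had, by contrast, 12.4, 8.92 and 16.0 in N2 and 14.5, 9.74 and 11.6 in the mutants at day 0, values that overlap, and a difference between the ages of 1.90 ± 0.72 relative to medians (adjusted p = 0.637).

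**Figure D4:**
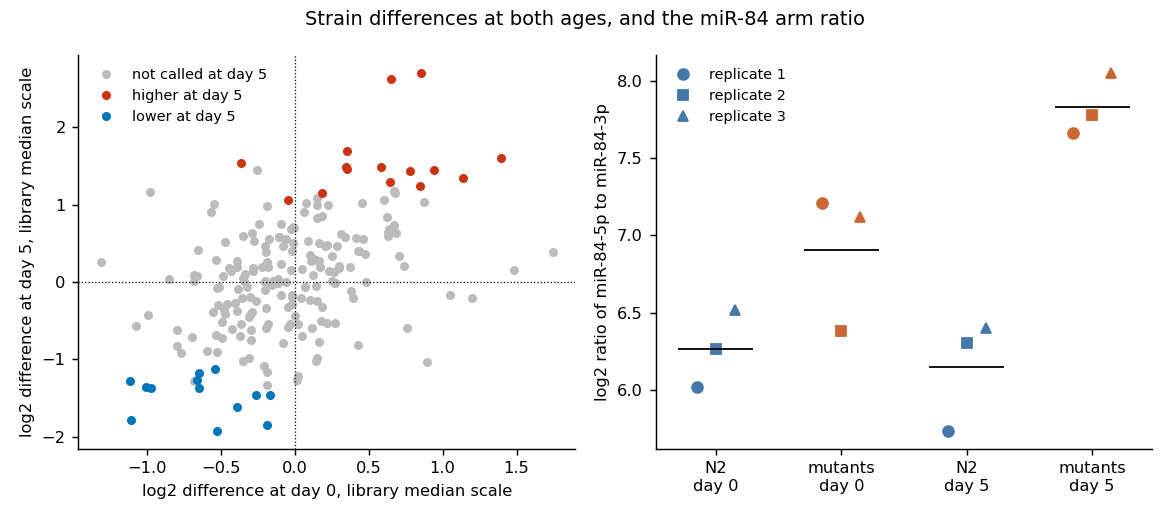
Left, log2 difference between mutants and N2 relative to library medians at day 5 (vertical) against day 0 (horizontal) for the 211 microRNAs, with those called at day 5 in colour. Right, log2 ratio of miR-84-5p to miR-84-3p in the 3 libraries of each group, with a line at the group mean. The mutants at day 5 lie between 7.66 and 8.05, above each other library.

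Lower relative to library medians were 13 microRNAs, 4 of them arms of the mir-35 cluster. Each of the 13 also had a negative difference on the deposited scale, from −1.06 to −0.17, but 0 were called there. With the replicate block 1 of them, miR-44-5p, passed there too in the fit of 12 libraries (limma adjusted p = 0.0474), and not in that of the day 5 libraries alone (0.0571). Of the 13, 5 were called lower under all 4 rescalings, namely miR-36-5p, miR-37-5p, miR-41-5p, miR-44-5p and miR-84-3p. The 13 together took 8.34%, 7.998% and 7.12% of the total in N2 and 3.63%, 3.55% and 3.28% in the mutants, a gap that follows from how they were picked. miR-36-5p, miR-37-5p, miR-78 and miR-2210-3p fall outside the rule for named microRNAs and are named after their values were seen.

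**Figure D5:**
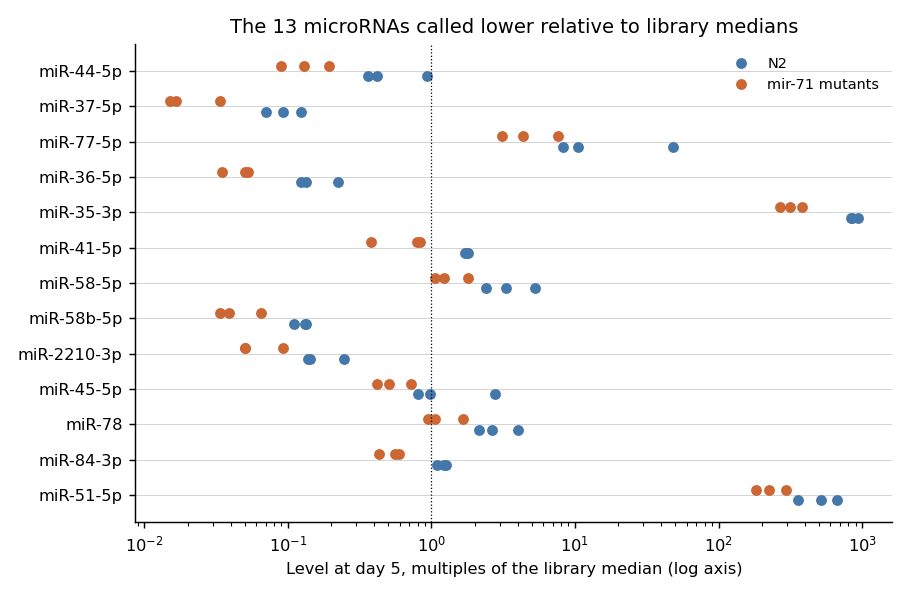
Level at day 5 of the 13 microRNAs called lower relative to library medians, as multiples of the library median (log axis), with 1 point for each of the 3 N2 and 3 mutant libraries. For each of the 13 the mutant points lie below the N2 points. The dotted line marks the library median.

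Embryos need the mir-35 family, whose members are made in the germline and at the start of development. mir-35 itself sits on chromosome II at 11537608 to 11537704. The abundant guide miR-35-3p stood at 92994, 61015 and 94212 normalised reads in N2 and 112136, 33735 and 47809 in the mutants, which overlap. It made up 4.69, 4.90 and 4.91% of the total in N2 and 2.23, 1.80 and 1.92% in the mutants, where the strains were far apart. The difference relative to medians was −1.46 ± 0.45 (limma adjusted p = 0.0337), and on shares of the total it was −1.29 ± 0.43 (adjusted p = 0.0565, and 0.0198 with the replicate block). miR-41-5p stood at 1.72, 1.75 and 1.81 medians in N2 and 0.381, 0.836 and 0.795 in the mutants (−1.46 ± 0.34, adjusted p = 0.0102). The passenger arms miR-36-5p (−1.62 ± 0.38) and miR-37-5p (−1.84 ± 0.53) were scarce. Of the 8 family members taken by their more abundant arm, 2 were lower relative to medians, miR-35-3p and miR-41-5p, and 0 higher. The highest of these 8 arms, miR-38-3p, had −0.20 ± 0.75 (adjusted p = 0.904). Only mir-41 entered by its 5p arm. The scarcer miR-41-3p, outside the naming rule, had 0.15 ± 0.81 (limma adjusted p = 0.936). The family median turned from 0.16 on the deposited scale to −0.78 relative to medians and −0.61 on shares, against 0.98, 0.05 and 0.23 over all 211.

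miR-44-5p fell the furthest of the 13 relative to medians. It stood at 0.926, 0.417 and 0.362 medians in N2 and 0.192, 0.130 and 0.0900 in the mutants, without overlap. The difference relative to medians was −1.92 ± 0.40 (limma adjusted p = 0.00583), and it was called whichever of the 12 libraries was left out. Its difference in deposited values was −1.002 ± 0.57 (adjusted p = 0.184). miR-45-5p, the passenger of the sister gene, stood at 2.79, 0.984 and 0.808 medians in N2 and 0.720, 0.507 and 0.415 in the mutants (−1.28 ± 0.40, adjusted p = 0.0348, and −0.73 with adjusted p = 0.232 without replicate 1 of aged N2). Their guides miR-44-3p and miR-45-3p have the same value in each library, so they cannot be told from one another here, and had −1.02 ± 0.36 (adjusted p = 0.0608, and 0.0299 with the replicate block).

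The remaining members of the 13 belong to other families. miR-51-5p, of a family with broad roles in embryos, was the second abundant one, at 3.34, 2.97 and 2.11% of the total in N2 and 1.33, 1.69 and 1.31% in the mutants (−1.12 ± 0.35 relative to medians, limma adjusted p = 0.0353). miR-77-5p had an outlying N2 library, with 48.5, 10.5 and 8.22 medians in N2 and 7.67, 4.35 and 3.08 in the mutants (−1.78 ± 0.54, adjusted p = 0.0334, and −0.99 with adjusted p = 0.245 without replicate 1 of N2). The call was also lost without any 1 of the 3 aged mutant libraries. The groups did not overlap. miR-58-5p and miR-58b-5p, from genes of the mir-58 family related to bantam of flies, had −1.37 ± 0.41 and −1.36 ± 0.45 (adjusted p = 0.0334 and 0.0429). miR-78 had −1.26 ± 0.38 and miR-2210-3p, whose gene overlaps an exon of ZK593.2, had −1.36 ± 0.44 (adjusted p = 0.0334 and 0.0422). On shares of the total miR-45-5p, miR-51-5p, miR-58-5p and miR-77-5p were called with the replicate block in limma (adjusted p from 0.0187 to 0.0382) and not without it. With single libraries left out, miR-41-5p kept its call relative to medians in 11 of 12 fits, miR-35-3p and miR-51-5p in 7 and miR-58b-5p in 3.

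Of the 13 called lower, 7 were passenger arms, the less abundant arm of a precursor with both arms measured. Among all 61 such arms, 3 were higher and 7 lower relative to medians, where 7.11% and 6.16% of all 211 were, with a median difference of −0.07. Among the 61 guides of the same precursors 1 was higher and 3 lower, with a median of 0.01. On the deposited scale 8 passengers and 13 guides were higher, where 22.7% of all 211 were, and 0 of either lower, at medians of 0.84 and 0.96.

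The ratio of the 2 arms of a precursor does not depend on how libraries are scaled, apart from the added 1. It could be tested for 45 of 61 precursors, those with both arms at a mean of at least 20, and limma called 1, miR-84, or 2.22%, with a higher ratio of 5p to 3p in the mutants, and 0, or 0%, with a lower one. miR-84 is a let-7 relative that acts in larval timing. Its log2 ratio was 5.73, 6.31 and 6.40 in N2 and 7.66, 7.78 and 8.05 in the mutants, and the groups did not overlap. The difference was 1.69 ± 0.35 (SE, limma adjusted p = 0.0146). It was not called without any 1 of the 3 mutant libraries at day 5, at 1.77, 1.71 and 1.58. Neither the guide nor the passenger overlapped between the strains relative to medians. The guide miR-84-5p stood at 65.6, 101 and 93.0 medians in N2 and 120.2, 125 and 116 in the mutants (0.50 ± 0.36, adjusted p = 0.385). The passenger miR-84-3p stood at 1.22, 1.26 and 1.09 and 0.590, 0.560 and 0.430 (−1.18 ± 0.31, adjusted p = 0.0182). In deposited values the guide had 1.45 ± 0.51 (adjusted p = 0.0506, and 0.00792 with the replicate block). At day 0 the ratio differed by 0.64 (adjusted p = 0.548), and the change of that difference with age was not called (adjusted p = 0.992). Of the 45 precursors 8 had an unadjusted p under 0.05.

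The 8 microRNAs studied for lifespan had a median difference of 1.14 on the deposited scale and 0.19 relative to medians, against 0.98 and 0.05 over all 211. Of the 8, 2 were called higher on the deposited scale, lin-4-5p and miR-239b-5p, 1 relative to medians, miR-239b-5p, and 0 lower on either. Over all 211 the shares called higher were 22.7% and 7.11%, so these counts, by the more abundant arm, lie near the background. They depend on that choice for mir-239a, held by miR-239a-3p (0.65 ± 0.50 and −0.29 ± 0.32, not called). Its scarcer arm miR-239a-5p is not counted here and was called higher on both scales (2.53 ± 0.72 and 1.60 ± 0.51). lin-4-5p, a developmental timer whose loss shortens life, stood at 2210.3, 2557 and 3157 normalised reads in N2 and 8240.2, 4936 and 4703 in the mutants (1.14 ± 0.39, limma adjusted p = 0.0482, and 0.0628 in the blocked fit of the day 5 libraries alone), and at 0.20 ± 0.37 relative to medians (adjusted p = 0.783). miR-34-5p, of stress responses, stood at 967, 1135 and 2125 and 4479, 2134 and 2434, and the groups did not overlap on this scale. It had 0.16 ± 0.36 relative to medians. The glial miR-228-5p (0.19 ± 0.37), miR-80-3p (0.23 ± 0.35), miR-238-3p (0.02 ± 0.35) and miR-246-3p (0.33 ± 0.33) did not pass relative to medians. On the deposited scale these 4 and miR-34-5p passed once the replicate block was added, with limma adjusted p from 0.00614 to 0.0324. In the blocked fit of the day 5 libraries alone the 4 passed and miR-34-5p did not (adjusted p = 0.0882). Of the single markers, the muscle microRNA miR-1-3p had 1.42 ± 0.65 on the deposited scale (adjusted p = 0.0998, and 0.0133 with the replicate block). Relative to medians miR-1-3p had 0.47 ± 0.40 (limma adjusted p = 0.479). The intestinal miR-60-3p was called on the deposited scale (1.5005 ± 0.52, adjusted p = 0.0482, and 0.0557 in the blocked fit of the day 5 libraries alone), and not relative to medians (0.56 ± 0.39).

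Taken by the more abundant arm of each gene, the timing families held 1 call that outlived rescaling. Among the scarcer arms, not counted here, miR-795-3p was called higher on all 3 scales. The scarcer miR-84-3p was called lower relative to medians and on shares of the total. In the let-7 family 3 of 7 members were higher on the deposited scale, miR-793, miR-794-5p and miR-795-5p, and 1, miR-793, relative to medians, beside 22.7% and 7.11% of all 211. The family median was 1.33 and 0.39, against 0.98 and 0.05 over all 211. let-7-5p itself had 0.25 ± 0.43 on the deposited scale and −0.69 ± 0.34 relative to medians (limma adjusted p = 0.658 and 0.212), a sign that depended on the scale. miR-48-5p had −0.19 ± 0.34 relative to medians. In the lin-4 family 1 of 2 was called on the deposited scale and 0 relative to medians, and miR-237-5p had 0.51 ± 0.44 and −0.43 ± 0.33.

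The mir-64 family had 4 of 5 members higher on the deposited scale and 0 relative to medians, beside 22.7% and 7.11% of all 211. The family medians were 1.4996 and 0.56, against 0.98 and 0.05. Its highest member, miR-66-5p, stood at 115, 274 and 292 library medians in N2 and 416, 464 and 373 in the mutants, without overlap (0.99 ± 0.41, limma adjusted p = 0.120, and 0.000336 in the blocked fit of the day 5 libraries alone). miR-64-5p was the lowest (−0.04 ± 0.37). Without a call on the deposited scale (adjusted p = 0.0835), it had 0.0194 with the replicate block in limma, and 0.0513 with it in the day 5 libraries alone. Among 4 measured nervous-system microRNAs 3 were higher on the deposited scale, lsy-6, miR-124-3p and miR-790-5p, and 1, lsy-6, relative to medians, while miR-791-3p was called on neither except on the deposited scale in the blocked fit of the day 5 libraries alone (adjusted p = 0.0489). The shares over all 211 were 22.7% and 7.11%. miR-124-3p, of sensory neurons, stood at 6.13, 7.88 and 13.8 normalised reads in N2 and 44.4, 28.6 and 32.2 in the mutants (1.86 ± 0.55, adjusted p = 0.0262), and had 0.98 ± 0.44 relative to medians (adjusted p = 0.173). Its mutant values lay above N2 on both scales.

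The other lists gave few calls. On the deposited scale 1 of 6 mir-51 members (miR-55-3p, 1.23 ± 0.41), 1 of 4 mir-2 members (miR-797-5p, 1.82 ± 0.63, not called in the blocked fit of the day 5 libraries alone), 1 of 3 mir-72 members (miR-74-3p, 1.26 ± 0.44; miR-72-5p reached an adjusted p of 0.00425 with the replicate block in limma), 0 of 7 mir-58 members and 0 of 4 mir-44 members were higher, and 0 lower, beside 22.7% and 0% of all 211. None of those called was called relative to medians, where 1 mir-51 member (miR-51-5p) and 1 mir-58 member (miR-58b-5p) were lower, beside 6.16% of all 211. These counts take the more abundant arm of each gene. Of the scarcer arms, not counted here, miR-2-5p was called higher relative to medians, and miR-44-5p, miR-45-5p and miR-58-5p lower. miR-73-3p, the lowest of the mir-72 family, had −0.75 ± 0.36 on that scale (limma adjusted p = 0.199). It passed in the blocked fit of the day 5 libraries alone (adjusted p = 0.0255). Of the 3 listed as mirtrons 1, miR-62, was higher on both scales, and miR-1018 had −0.59 ± 0.47 relative to medians. The annotation used places mir-1018 between protein-coding genes, so it gives no host intron for this member. miR-74-3p is outside the naming rule and was chosen after its value was seen.

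Of the 5 most abundant microRNAs none was called on any of the 3 scales by limma without the replicate block. miR-58-3p took 14.0, 17.0 and 26.1% of the total in N2 and 21.6, 15.7 and 23.0% in the mutants, and the ranges overlap. Its difference was −0.07 ± 0.30 relative to medians (limma adjusted p = 0.936), and 0.88 ± 0.54 on the deposited scale (adjusted p = 0.214, 0.0261 with the replicate block, and 0.0705 with it in the day 5 libraries alone). miR-48-5p took 8.49, 6.50 and 5.16% in N2 and 6.33, 6.79 and 6.48% in the mutants. miR-80-3p stood at 5.74, 6.24 and 5.29% and 6.54, 10.3 and 6.49%, with the mutants above N2 in every library but without a call (0.40 ± 0.30 on shares of the total, adjusted p = 0.371). miR-70-3p (−0.59 ± 0.33) and miR-82-3p (−0.54 ± 0.33) had negative differences relative to medians that passed only in the blocked fit of the day 5 libraries alone, among the alternatives run (adjusted p = 0.0225 and 0.0351). Relative to medians, 183 of the 211 microRNAs were not called, with differences from −1.32 to 1.45, 98 of them positive.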

How the data were processed

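Small RNA of whole worms was sequenced in 12 libraries, 3 in each of 4 groups, with group and replicate number read from each title. Per the submitters' processing notes, STAR 2.4.0h and DESeq2 were used with genome build WBcel235. How reads were trimmed and counted is not given here. The authors deposited a signal, the normalised count of each mature microRNA, for 213 microRNAs. The features that set the scaling are not given. Raw counts were not used, so read depth and counting error are unknown. The lowest value above 0 in a day 5 library was 0.563 to 4.93. A log2 table that the authors deposited as well was used as an alternative. How it was transformed is not given.

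The members, lists and the rule for named microRNAs were chosen with earlier results of these data known. The value plus 1 was put on a log2 scale and 1 model with 4 group means was fitted by limma 3.58.1 under R 4.3.3, with an intensity trend and 8 residual degrees of freedom. Tests were two-sided and p-values adjusted by Benjamini-Hochberg over all 213 microRNAs, and counts leave out miR-71. For the other scales each library was divided by its median, or its total, over the 211 microRNAs other than miR-71. Differences on the log2(value + 1) scale understate those of scarce microRNAs. Arm ratios used precursors with both arms at a mean of at least 20, and were adjusted over those tested. Trimmed means of M-values were computed as scaling factors, without a count model. The test was tried on simulated data first. Named were the microRNAs called the same way on the deposited, median and total scales, the 6 largest called differences in each direction relative to medians with a mean of at least 20 in the higher group, the 6 largest called on the deposited scale, the 5 most abundant, the lifespan list, the highest and lowest of each other list, and precursors whose arm ratio was called. Other names were chosen after their values were seen. Lists hold the more abundant arm of a gene, which put miR-41-5p and miR-239a-3p there. Positions come from Ensembl's annotation of WBcel235, in which 206 of 213 microRNAs were found by name.

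The titles give replicate numbers and do not state that these pair the libraries of the strains. Deviations from the group means at day 5 had correlations of 0.422, 0.472 and 0.339 between libraries of the same number. Between other numbers they were −0.482 to −0.0710. Deviations cancel within a group, so the latter values follow in part from the former. Values with the replicate number as a block are therefore given where they change a call.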

Additional observations from a re-analysis of the deposited data

How the results depend on the processing

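The count on the deposited scale, 48 higher and 0 lower, was 15 and 13 with library medians, 19 and 5 with totals, 18 and 5 with totals that leave out the 5 most abundant microRNAs, and 9 and 12 with trimmed means of M-values. The replicate block gave 95 higher and 1 lower there, 11 lower on shares of the total, and 26 higher and 34 lower relative to medians in the fit of the day 5 libraries alone. Without the intensity trend 7 were lower relative to medians. The arm ratio of 2 precursors was called higher in the day 5 libraries alone. With 1 of the 12 libraries left out, the number higher ran from 1 to 75 on the deposited scale, 2 to 19 relative to medians and 9 to 26 on shares, and the number lower from 2 to 17 relative to medians and 2 to 14 on shares. Called arm ratios ran from 0 to 2 higher and 0 to 1 lower, and the miR-84 difference from 1.48 to 1.81. The ratio of mean medians ran from 1.52 to 2.51, and that of mean totals from 1.27 to 2.19. The cause of these changes was not tested. Where a library is left out of a group, the other groups supply part of the spread. Called values kept their sign under every alternative run. Of 3036 alternatives to 150 values, 94 changed sign where neither value was called, 44 of them on the deposited scale under another scaling, for 14 microRNAs. In the fit of 12 libraries the replicate block removed 0 calls and added, among the 50 named microRNAs, 10 on the deposited scale, 1 relative to medians and 5 on shares. In the day 5 libraries alone it added 7 and removed 3 on the deposited scale (lin-4-5p, miR-60-3p and miR-797-5p) and added 5 and removed 0 relative to medians. These 2 fits changed no other call of theirs. The blocked fits at day 0 and, relative to medians and on shares, of the difference between the ages were chosen after seeing the data. The small number of libraries, the unknown depth and the level of mutant replicate 1 limit all counts.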

Other observations

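The calls relative to library medians were spread unevenly over the genome, which is given here as a description without a test. Of the 15 microRNAs called higher, 7 come from chromosome X, 4 from V, 3 from I and 1 from II. Of the 12 called lower that could be placed, 7 come from chromosome II, 4 from IV and 1 from X. Among all 204 placed microRNAs other than miR-71, 66 come from X, 40 from II, 30 from III, 29 from IV, 21 from V and 18 from I. Neighbouring genes are not independent, since the mir-35 cluster alone gives 4 of the 7 on chromosome II. Of the 15, 11 lie between protein-coding genes and 4 in an intron. The shares over all placed microRNAs were not counted, so this split cannot be read as particular to the 15.

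The cluster of mir-229, mir-64, mir-65 and mir-66 on chromosome III gave 5 of 7 measured arms called higher on the deposited scale and 0 relative to medians, beside 22.7% and 7.11% of all 211. Its passenger miR-66-3p, chosen after its value was seen, had the highest difference of the microRNAs not called relative to medians, 1.45 ± 0.55 (limma adjusted p = 0.0877). By mean level over the 12 libraries, the 43 microRNAs under 20 normalised reads had a median difference of 0.26 relative to medians, the 70 from 20 to 200 had −0.14, the 49 from 200 to 2000 had 0.20 and the 49 over 2000 had −0.07. Calls relative to medians fell in each of these classes, with 3 higher and 3 lower in the first, 6 and 5 in the second, 5 and 3 in the third and 1 and 2 in the fourth.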
